A study of Mus musculus with 22 samples.

Results

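Protein kinase A (PKA), protein kinase C (PKC) and calcineurin are serine/threonine enzymes that act on synaptic proteins when a neuron is active, and the mRNAs of 10 of their genes were followed through the ribosome-bound RNA of hippocampal area CA1. The 10 were taken by gene symbol from the 29848 genes of the deposited tables. They are the PKA catalytic subunits Prkaca and Prkacb, the PKA regulatory subunits Prkar1a and Prkar1b, the PKC isoforms Prkca, Prkcb, Prkce and Prkcz, and the calcineurin catalytic subunits Ppp3ca and Ppp3cb.

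PKA is held inactive by its regulatory subunits until cAMP binds them and frees the catalytic subunits, which then phosphorylate receptors, channels and transcription factors. The classical PKC isoforms, encoded by Prkca and Prkcb, need calcium and diacylglycerol, the isoform of Prkce needs diacylglycerol alone, and the atypical isoform of Prkcz needs neither. Calcineurin is a phosphatase that calcium and calmodulin switch on, and it opposes kinases at the synapse. All these enzymes have been studied for their part in synaptic plasticity and memory in the hippocampus, where PKA and PKC are linked to potentiation and calcineurin to depression.

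Every mouse was a Camk2a-tTA/tetO-EGFP-L10a double transgenic on the C57BL/6 strain, so a forebrain excitatory promoter drives the transactivator that turns on a GFP-tagged protein of the large ribosomal subunit. The tagged ribosomes were pulled down with the HtzGFP-19C8 antibody from microdissected dendrites or soma. The immunoprecipitates were from fear conditioned dendrite, home cage dendrite, fear conditioned soma and home cage soma, with 2 libraries each. Supernatants, which hold the RNA that was not pulled down, were given for fear conditioned dendrite, home cage dendrite and fear conditioned soma, with 1 library each. The labels give no age, sex or time after training, and they do not say whether libraries came from separate animals or from pools. The p-values therefore measure the spread between these libraries, which may be technical.

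Each of the 11 libraries was read in paired-end mode and again in single-end mode, and both runs of a library count as 1 replicate. Values are FPKM (fragments per kilobase and M mapped fragments) of the paired-end run unless said otherwise, divided by 1 factor per library, and are called scaled FPKM. The tables split a transcript into a coding part, which also takes in its 5′ UTR and the first bases after the stop codon, and a second part with the rest of the 3′ UTR. Paired-end immunoprecipitates held an estimated 5.62 to 29.9 M fragments and listed 3220 to 12205 genes above 0, and Rpsa took 74.0% of the summed FPKM in home cage soma library 2. Of 10 genes that nearly all cells use (Actb, Hprt and Tbp among them), 1 or 2 were listed at 0 in each of 5 immunoprecipitates, so a 0 below is given as listed and not as absence. The tissue labels were set against marker genes. All 6 excitatory neuron markers were above 0 in at least 1 library of each location, with Neurod6 and Nrgn at 0 in both home cage dendrite immunoprecipitates. Their summed level was 70.9 to 583 scaled FPKM in dendrite immunoprecipitates and 29.2 to 138 in soma immunoprecipitates. Taken singly, 2 of the 6 were higher and 4 lower in dendrite by mean log2 level. All 10 astrocyte markers were above 0 in at least 1 library of each location as well. They summed to 91.3 to 236.5 scaled FPKM in dendrite and 6.01 to 63.9 in soma immunoprecipitates. Fewer cells of a type and less RNA per cell cannot be told apart in such samples.

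Related isoforms of these enzymes have similar coding sequences, which matters because reads that fit 2 genes could be shared out between them. The coding sequences of GENCODE vM21 (build GRCm38) were compared for the PKA catalytic, PKA regulatory and calcineurin pairs, over windows of 25 bases. The pair of PKA catalytic subunits shared 0.972% of windows, while the PKA regulatory pair and the calcineurin pair shared 0%. The closest stretches are shown because they are where reads of 1 gene look most like its paralog, with 30 bases per gene and capitals at the bases that differ within the pair. Positions count from the first base of the start codon: 204 to 233 of Prkaca and 345 to 374 of Prkacb, 423 to 452 of both regulatory subunits, and 1184 to 1213 of Ppp3ca and 1214 to 1243 of Ppp3cb.
Prkaca: CCactacgccatgaagatcttagacaagca
Prkacb: GTactacgccatgaagatcttagacaagca
Prkar1a: TgaTgaTaacgagagaagtgacatTtttga
Prkar1b: GgaCgaCaacgagagaagtgacatAtttga
Ppp3ca: tcatCagaaacaagatccgagcaatAggca
Ppp3cb: tcatAagaaacaagatccgagcaatTggca
The longest run without a difference was 34 bases between the PKA catalytic subunits, 20 between the calcineurin genes and 17 between the regulatory subunits. Nearly all of each of these coding sequences can therefore be told from its paralog by a read of 25 bases.

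On build mm9, which the files use, the 10 genes lie on 8 chromosomes. Ppp3ca is at chr3:136333734-136598743 on the plus strand and Ppp3cb at chr14:21318536-21365795 on the minus strand. Prkaca is at chr8:86496877-86520344 (plus), Prkacb at chr3:146392543-146475910 (minus), Prkar1a at chr11:109512263-109530962 (plus) and Prkar1b at chr5:139493258-139605706 (minus). The PKC genes are Prkca at chr11:107794701-108205202 (minus), Prkcb at chr7:129432639-129777915 (plus), Prkce at chr17:86567125-87057259 (plus) and Prkcz at chr4:154634229-154735500 (minus). Prkcz has 3 models in the deposited annotation, of which a shorter one codes for 1227 bases from an internal start, and the tables give 1 value for all of them. That matters for this gene because the brain makes a constitutively active fragment, PKMζ, from an internal promoter of Prkcz. The spans of Ppp3cb and Prkca, introns included, overlap those of symbols on the opposite strand. The sources used here do not say whether strand was used in counting.

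The levels of these genes in pulled-down RNA were spread widely between libraries. Prkcb, Prkce and Prkar1b were above 0 in all 8 immunoprecipitates. Prkcb was the steadiest of the 10, at 9.04 ± 8.06 scaled FPKM over the 8 libraries (SD), with a coefficient of variation of 89.2%. Prkce averaged 16.3 ± 24.4 scaled FPKM and Prkar1b 3.21 ± 3.88 (SD, n = 8 each), so their SD exceeded their means. Among genes listed at 0 in at least 1 immunoprecipitate, medians ran from 3.94 scaled FPKM for Ppp3ca and 3.08 for Prkar1a through 0.385 for Prkaca and 0.361 for Prkca. The other medians were 0.00808 for Ppp3cb, 0.00588 for Prkacb and 0 for Prkcz. FPKM are per length, so levels can be set side by side between genes. Ordered by mean level, the genes ran Prkce, Ppp3ca, Prkcb, Prkar1a, Prkar1b, Ppp3cb, Prkaca, Prkca, Prkacb and Prkcz, and no neighbours in that order differed by more than the SD of their within-library log2 difference.

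**Figure D1:**
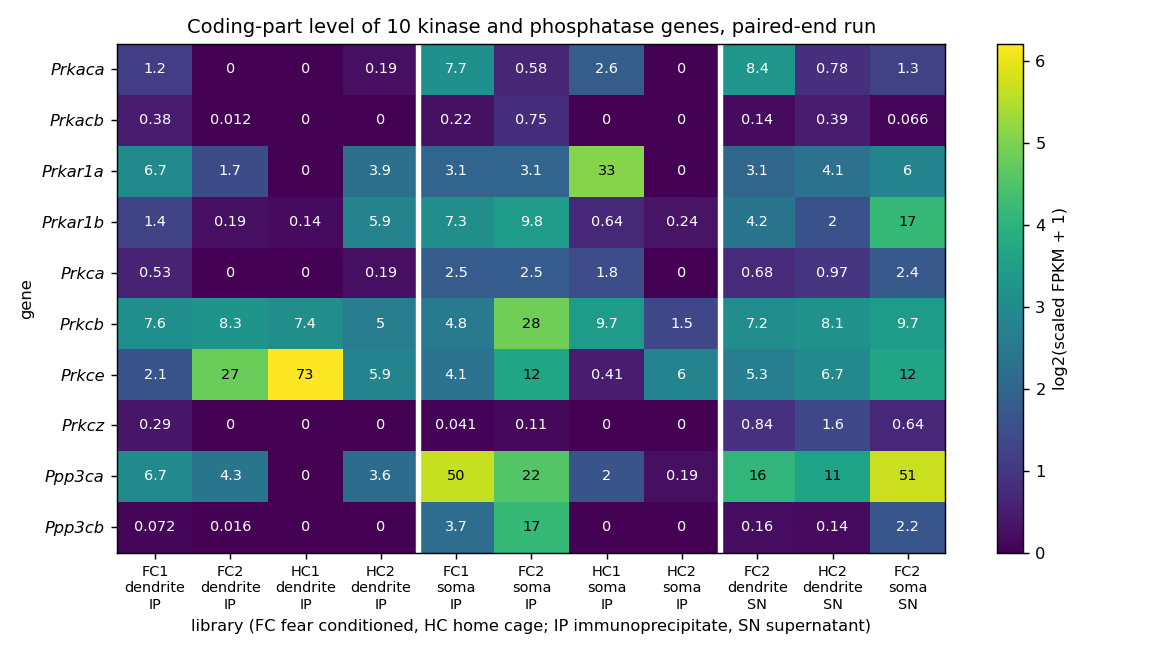
Scaled FPKM of the coding part for the 10 genes (rows) in the 11 libraries (columns, paired-end run), with the value printed in each cell and colour giving log2(scaled FPKM + 1). Prkcb is between 1.5 and 28 in every library, while Prkacb and Prkcz are below 1 in every immunoprecipitate and Ppp3cb is above 1 only in the fear conditioned soma and the soma supernatant.

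How many of the 10 were listed above 0 differed by library. Both fear conditioned soma immunoprecipitates and fear conditioned dendrite library 1 listed all 10, and fear conditioned dendrite library 2 listed 7. Home cage dendrite libraries listed 3 and 7, and home cage soma libraries 7 and 4. All 3 supernatants listed all 10. The counts moved with the number of genes of any kind above 0, which was 9267 and 9211 in fear conditioned soma and 5006 and 3220 in home cage soma.

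The first comparison asks which of these mRNAs were more or less on ribosomes of dendrites than on those of the soma. None of the 10 genes had 4 dendrite libraries all above or all below the 4 soma libraries. In limma, fitted over all 3019 genes with a mean of at least 1 scaled FPKM, 7 of the 10 were tested and none passed at an adjusted p of 0.05. Across all genes 0% passed. Groups that do not overlap were rare here too, at 1.69% of genes higher and 2.05% lower in dendrite. Prkca, Prkacb and Prkcz fell under the minimum and entered only the exact permutation test.

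Of the PKC genes, Prkcb was the most alike between the locations. It had 7.59 and 8.29 scaled FPKM in fear conditioned dendrite and 7.44 and 5.05 in home cage dendrite, against 4.77 and 28.0 in fear conditioned soma and 9.74 and 1.498 in home cage soma. The dendrite libraries lay within the range of the soma libraries. The log2 difference, dendrite minus soma, was −0.03 (SE 1.10, limma adjusted p = 0.989), which leaves room for a change of over 1 log2 unit either way. Prkcb protein is a calcium-dependent kinase that is abundant in forebrain neurons.

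Prkce, whose product does not need calcium, had the highest single value of the set. Its dendrite values were 2.07 and 27.2 scaled FPKM after fear conditioning and 72.9 and 5.95 in the home cage, against soma values of 4.14 and 11.8 after fear conditioning and 0.407 and 5.99 in the home cage. The log2 difference was 1.53 (SE 1.25, limma adjusted p = 0.657). The direction was opposite in the single-end run of the same libraries, where dendrite values were 0.185, 5.68, 1.47 and 0.530 in the same order, against soma values of 6.69, 5.36, 3.42 and 1.40, a log2 difference of −1.03. The value of 72.9 in home cage dendrite library 1 corresponded to about 1282 fragments in the paired-end run, and the single-end value of 1.47 to about 7.36 reads.

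Prkca had few reads in dendrite. It was 0.528 and 0 scaled FPKM in fear conditioned dendrite and 0 and 0.194 in home cage dendrite, against 2.50 and 2.47 in fear conditioned soma and 1.77 and 0 in home cage soma. Only the 0 in home cage soma library 2 made the groups overlap. The exact permutation test over the 8 libraries gave a two-sided p of 0.143 in the paired-end run and 0.0571 in the single-end run, where the smallest p that 4 against 4 allows is 0.0286. Single-end values were 0.705, 0.131, 0 and 0 in dendrite, against 9.35, 6.87, 3.71 and 0.380 in soma. There the highest dendrite value was above the lowest soma value, and no other pair of values crossed. The 0.380 rested on about 1 read.

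Prkcz was the lowest of the 10. It was 0.290 scaled FPKM in fear conditioned dendrite library 1 and listed at 0 in the other 3 dendrite immunoprecipitates, against 0.0406 and 0.105 in fear conditioned soma and 0 in both home cage soma libraries. The highest of these values corresponded to about 27.7 fragments. The supernatants held more of it, at 0.839 and 1.56 scaled FPKM in dendrite and 0.638 in soma.

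The PKA genes did not differ between locations by more than their spread. Prkaca, the main catalytic subunit, was 1.19 and 0 scaled FPKM in fear conditioned dendrite and 0 and 0.190 in home cage dendrite, against 7.69 and 0.581 in fear conditioned soma and 2.56 and 0 in home cage soma (log2 difference −1.06, SE 0.86, limma adjusted p = 0.657). Prkacb, the other catalytic subunit, was at most 0.383 in dendrite and 0.752 in soma. Both genes were at or near 0 in several libraries of each location. Prkaca met the minimum mean only through soma libraries, so its p is given as a description.

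Prkar1a and Prkar1b encode the type I regulatory subunits, Prkar1b being the form enriched in neurons. Prkar1a was 6.73 and 1.74 scaled FPKM in fear conditioned dendrite and 0 and 3.87 in home cage dendrite, against 3.08 and 3.07 in fear conditioned soma and 33.0 and 0 in home cage soma. Its log2 difference of −0.61 (SE 1.19, limma adjusted p = 0.806) turned to 0.66 without home cage soma library 1. The single-end run of that library gave 0.502, against 33.0 in the paired-end run, or about 1.06 reads against 311 fragments. Prkar1b was 1.40 and 0.191 in fear conditioned dendrite and 0.136 and 5.90 in home cage dendrite, against 7.32 and 9.83 in fear conditioned soma and 0.639 and 0.245 in home cage soma. Its log2 difference was −0.76 (SE 0.91, limma adjusted p = 0.679).

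Both calcineurin genes had their highest values in the soma. Ppp3ca was 6.67 and 4.33 scaled FPKM in fear conditioned dendrite and 0 and 3.56 in home cage dendrite, against 49.9 and 22.4 in fear conditioned soma and 2.04 and 0.192 in home cage soma. The fear conditioned soma values lay above all dendrite values, and the home cage soma values within the range of the dendrite values. Its log2 difference was −1.13 (SE 1.03, limma adjusted p = 0.657). Ppp3cb was 0.0719 and 0.0162 in fear conditioned dendrite and 0 in both home cage dendrite libraries, against 3.66 and 16.7 in fear conditioned soma and 0 in both home cage soma libraries. Its log2 difference was −1.56 (SE 0.77, limma unadjusted p = 0.0645, adjusted p = 0.657), on a log2(scaled FPKM + 1) scale, which understates differences of low genes. Ppp3cb met the minimum mean only through the fear conditioned soma libraries, in which it is high, so its p is given as a description.

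**Figure D2:**
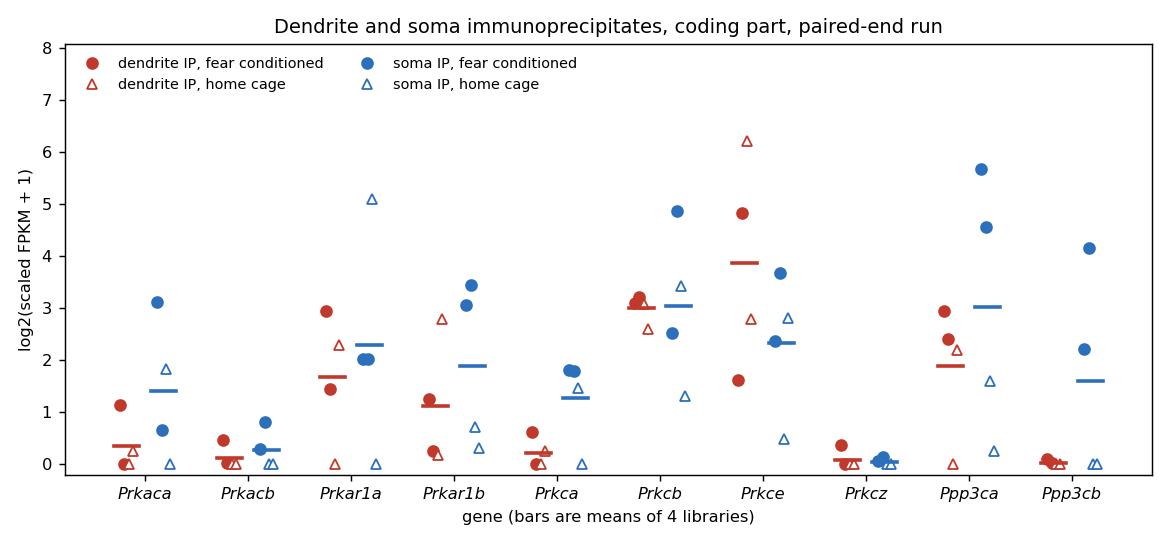
Each point is 1 immunoprecipitate (coding part, paired-end run) on the log2(scaled FPKM + 1) scale, with dendrite in red left of soma in blue, filled circles for fear conditioned and open triangles for home cage, and bars at the mean of 4 libraries. Dendrite and soma points overlap for all 10 genes, and the soma points of Ppp3ca and Ppp3cb split into high fear conditioned and low home cage libraries.

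The median log2 difference of the 7 tested members was −0.76, with 1 of 7 positive, beside a median of −0.34 and 41.7% positive over all 3019 genes. Ppp3cb and Prkaca met the minimum mean only through soma, the group in which they are high, so this count and median are a description. Their dendrite means were 0.022 and 0.345 scaled FPKM. The astrocyte marker sum was higher in every dendrite immunoprecipitate than in any soma immunoprecipitate, and its part in these differences was not tested. Over the 10 genes, 7 kept the sign of the difference between the paired-end and single-end runs. The 3 that did not were Prkcb, Prkce and Prkar1a.

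How far both runs of a library gave the same level was therefore looked at gene by gene. Across the 11 libraries, Pearson's r between the runs on the log2(scaled FPKM + 1) scale was 0.956 for Prkca, 0.924 for Ppp3cb and 0.895 for Ppp3ca. It was 0.302 for Prkcb, 0.106 for Prkce, 0.308 for Prkaca and 0.292 for Prkar1a. These are descriptions over libraries that share their source RNA in both runs. The largest gap was that of Prkce in home cage dendrite library 1, at 4.90 log2 units, followed by Prkar1a in home cage soma library 1, at 4.499. The single-end runs were shallower, at an estimated 0.525 to 10.6 M reads.

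**Figure D3:**
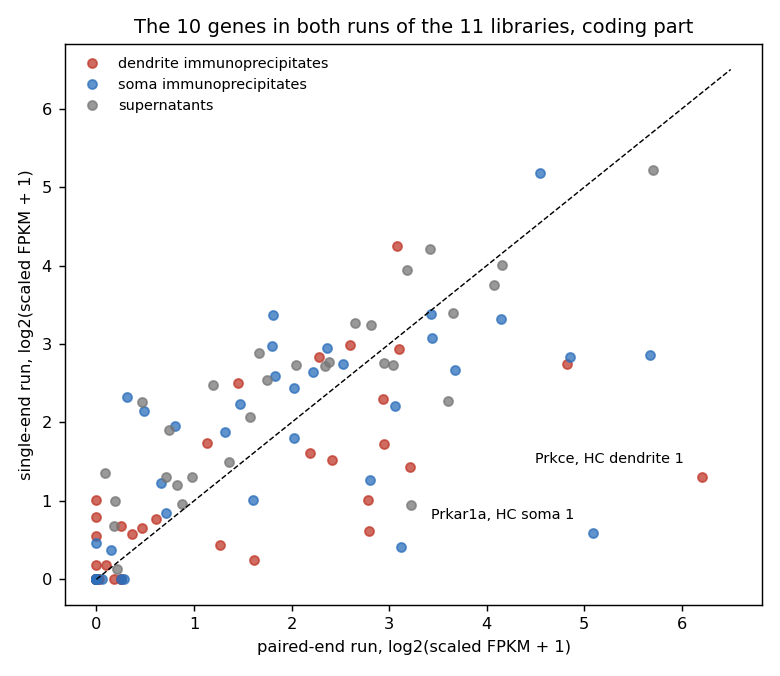
Level of each of the 10 genes in the paired-end run (x axis) and the single-end run (y axis) of each library, both as log2(scaled FPKM + 1) of the coding part, in red for dendrite immunoprecipitates, blue for soma immunoprecipitates and grey for supernatants, with a dashed line of equality. The points farthest below the line are Prkce in home cage dendrite library 1 (HC dendrite 1) and Prkar1a in home cage soma library 1 (HC soma 1).

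The second comparison set fear conditioned against home cage immunoprecipitates within each location. In soma, the calcineurin genes had the largest differences of the 10. Both Ppp3ca values after fear conditioning, 49.9 and 22.4 scaled FPKM, were above both home cage values, 2.04 and 0.192. For Ppp3cb the fear conditioned values were 3.66 and 16.7 and both home cage values were listed at 0. The single-end runs showed the same split, with Ppp3ca at 6.25 and 35.2 against 1.02 and 0 and Ppp3cb at 5.26 and 9.02 against 0 and 0.

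The log2 difference, fear conditioned minus home cage soma, was 4.18 for Ppp3ca (SE 1.45, unadjusted p = 0.0128) and 3.18 for Ppp3cb (SE 1.09, unadjusted p = 0.0121). Neither passed limma over all genes, with an adjusted p of 0.598 for both. Both fitted values depend on the pseudocount. With a pseudocount of 5 they were 2.68 for Ppp3ca and 1.46 for Ppp3cb, and with 0.1 they were 5.41 for Ppp3ca and 6.31 for Ppp3cb, whose home cage group is at 0. An unadjusted p under 0.05 with a higher fear conditioned level was found for 4.47% of all genes tested and for Ppp3ca and Ppp3cb among the 7 members. Ppp3cb met the minimum mean only through the fear conditioned soma libraries, the group in which it is high (it was at most 0.0719 in the other 6 immunoprecipitates), so its p and this count are given as a description. Across all genes 0% passed at an adjusted p of 0.05. With 2 libraries a group, the smallest two-sided p of the exact permutation test is 0.3333, so that test cannot show a difference here.

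The other members in soma pointed mostly the same way with smaller or less steady values. Prkar1b, at 7.32 and 9.83 scaled FPKM after fear conditioning against 0.639 and 0.245 in the home cage, had a log2 difference of 2.73 (SE 1.28, unadjusted p = 0.0523, limma adjusted p = 0.598). Its single-end values overlapped, at 3.63 and 7.40 against 0.789 and 4.00. Prkca was 2.50 and 2.47 against 1.77 and 0 in the paired-end run and 9.35 and 6.87 against 3.71 and 0.380 in the single-end run, with no overlap in either. Prkcb had a log2 difference of 1.32, Prkce 1.37, Prkaca 0.97 and Prkar1a −0.52, each smaller than its SE of 1.21 to 1.77.

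Groups of 2 that do not overlap were common in this comparison. All tested genes included 29.7% with both fear conditioned soma values above both home cage soma values, and 17.3% with that in both runs. The members had 3 of 7 tested genes in the first class (Prkar1b, Ppp3ca and Ppp3cb) and 2 of 7 in the second (Ppp3ca and Ppp3cb). Prkca, Prkacb and Prkcz, too low to be tested, also had both values above in the paired-end run, and Prkca in both runs. Prkacb and Prkcz overlapped in the single-end run. They were at most 0.752 and 0.105 scaled FPKM in fear conditioned soma, and the shares above do not cover genes this low. Among the tested genes 9.9% had both values below, and no member did. The median log2 difference was 1.37 for the 7 tested members and 0.22 for all genes. Ppp3cb and Prkaca met the minimum mean only through fear conditioned soma, so the member counts and median are a description.

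The 2 home cage soma libraries also differed from the fear conditioned ones in what else they held. The summed excitatory neuron markers were 48.0 to 138 scaled FPKM in fear conditioned soma and 29.2 to 37.4 in home cage soma. All 6 markers were above 0 in at least 1 library of each group. Interneuron markers summed to 4.28 to 6.15 in fear conditioned soma, with Slc32a1, Pvalb and Vip at 0, while all 7 were listed at 0 in home cage soma. Astrocyte markers overlapped, at 6.01 to 63.9 against 7.55 to 35.0, and Aqp4, Aldh1l1, Aldoc and Gja1 were at 0 in home cage soma. The part of these differences and of the lower number of genes above 0 in the calcineurin values was not tested. Without home cage soma library 2, the one in which Rpsa took most of the FPKM, the log2 difference was 3.51 for Ppp3ca (limma adjusted p = 0.285) and 3.18 for Ppp3cb (adjusted p = 0.189). The number of genes passing then came to 174 of all tested, none of them a member.

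**Figure D4:**
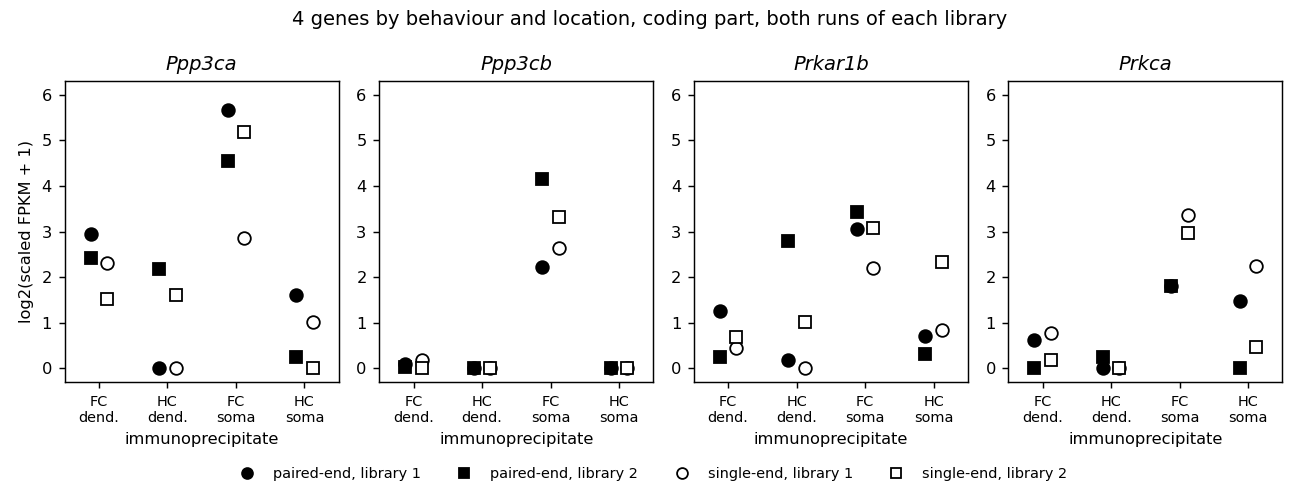
Levels of Ppp3ca, Ppp3cb, Prkar1b and Prkca in the 4 groups of immunoprecipitates (FC fear conditioned, HC home cage; coding part), as log2(scaled FPKM + 1), with filled symbols for paired-end and open symbols for single-end runs, circles for library 1 and squares for library 2. Ppp3cb is at 0 in both runs of both home cage groups and above 2 in all runs of fear conditioned soma, and the Prkar1b single-end points overlap in soma.

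In dendrite, the difference between fear conditioned and home cage was small beside the spread. None of the 7 tested members passed limma, with an adjusted p of 1 for each, and across all genes 0% passed. Ppp3ca was 6.67 and 4.33 scaled FPKM in fear conditioned dendrite against 0 and 3.56 in home cage dendrite, a log2 difference of 1.58 (SE 1.45). The single-end values, 3.92 and 1.87 against 0 and 2.06, overlapped. Prkce had a log2 difference of −1.28 (SE 1.77) and Prkar1a one of 1.06 (SE 1.69). Both fear conditioned values were above both home cage values for 3 of the 7 tested members (Prkcb, Ppp3ca and Ppp3cb) and for 24.9% of all genes tested, and below them for none of the members and 8.05% of all genes. For Prkcb the single-end run went the other way, at 6.64 and 1.71 against 18.1 and 6.91. Ppp3cb was 0.0719 and 0.0162 against 0 and 0, on about 6.11 and 1.025 fragments. Its single-end values, 0.139 and 0 against 0 and 0, overlapped.

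Whether the difference by behaviour was itself unlike in dendrite and soma was tested as an interaction. The largest, dendrite minus soma, were −3.46 log2 units for Prkar1b (SE 1.81, unadjusted p = 0.0781), −3.12 for Ppp3cb (SE 1.55, unadjusted p = 0.0645), −2.65 for Prkce (SE 2.51, unadjusted p = 0.309) and −2.60 for Ppp3ca (SE 2.05, unadjusted p = 0.228). The limma adjusted p was 0.736 for all 4 and at least that for the other members, and across all genes 0% passed. Ppp3cb met the minimum mean only through fear conditioned soma, so its interaction p is likewise a description. The calcineurin difference in soma is thus not shown to differ from that in dendrite.

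Ribosome-bound RNA was also set against the RNA left in the supernatant. In dendrite, 8 members could be tested over the 11 libraries and none passed, with an adjusted p of 1 for each, where 0.0656% of all 3049 genes passed. Ppp3ca was 6.67, 4.33, 0 and 3.56 scaled FPKM in the immunoprecipitates against 15.9 and 11.2 in the supernatants, a log2 difference of −1.95 (SE 1.27). All 4 immunoprecipitates were below both supernatants in the paired-end run. In the single-end run 1 pair crossed, since the highest immunoprecipitate, 3.92, was just above the lower supernatant, 3.86. Prkca was likewise lower in every immunoprecipitate, at 0 to 0.528 against 0.677 and 0.975, and did so in both runs. Its exact two-sided permutation p was 0.133, the smallest that 4 against 2 allows.

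Of the 8 tested members, 3 (Prkca, Ppp3ca and Ppp3cb) had all dendrite immunoprecipitates below both supernatants, as did 18.8% of all genes tested, and none had them above, as did 3.94%. Ppp3cb was at most 0.0719 in these immunoprecipitates against 0.158 and 0.141, on about 6.11 against 13.9 and 11.3 fragments. It met the minimum mean only through soma libraries. Prkcz, too low to be tested, was also below, with 0.290 as its highest immunoprecipitate value against 0.839 and 1.56. Both genes overlapped in the single-end run. There the highest immunoprecipitate was above the lower supernatant, at 0.139 against 0.0974 for Ppp3cb and 1.01 against 0.941 for Prkcz. Prkce had a log2 difference of 1.06 (SE 1.44) in the paired-end run and −1.79 in the single-end run. Prkcb showed none beyond its spread, at 5.05 to 8.29 in the immunoprecipitates against 7.19 and 8.09 in the supernatants. Markers of other cells differed between the fractions as well. Astrocyte markers summed to 91.3 to 236.5 scaled FPKM in dendrite immunoprecipitates against 252.7 to 289.5 in dendrite supernatants, and oligodendrocyte markers to 5.68 to 63.7 in immunoprecipitates against 121.1 to 122.6 in supernatants. All 7 microglia markers were above 0 in at least 1 library of each fraction, with sums of 0.397 to 7.56 in immunoprecipitates against 16.0 to 35.3 in supernatants. C1qa, C1qc, Cx3cr1 and Aif1 were at 0 in both home cage dendrite immunoprecipitates. Interneuron markers summed to 0.337 to 16.5 in immunoprecipitates against 20.7 to 39.2 in supernatants, with Pvalb at 0 in both. Endothelium markers overlapped, at 0 to 3.67 in immunoprecipitates against 0.689 to 0.813 in supernatants. Their part was not tested.

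For soma there was 1 supernatant, from fear conditioned library 2, which limma assumed to vary like the other groups. No member passed (adjusted p = 0.999 for each, and 0% across all genes). In the immunoprecipitate and the supernatant of fear conditioned soma library 2, Ppp3ca was at 22.4 against 51.2 scaled FPKM and Prkar1b at 9.83 against 16.8, lower in the immunoprecipitate. Prkcb was at 28.0 against 9.66 and Ppp3cb at 16.7 against 2.18, higher in the immunoprecipitate. In the single-end run Prkcb went the other way, at 6.11 against 17.5, while Ppp3cb was at 9.02 against 6.41. Prkce was at 11.8 against 11.6 and Prkca at 2.47 against 2.35. The rest were Prkar1a at 3.07 against 6.02, Prkaca at 0.581 against 1.28, Prkacb at 0.752 against 0.0665 and Prkcz at 0.105 against 0.638. Over the 3 supernatants Ppp3ca ranked first at 26.1 ± 21.9 scaled FPKM (SD, n = 3), and it was above Prkcb, at 8.32 ± 1.25, in all 3 paired-end runs. In the single-end run of the home cage dendrite supernatant the order was turned round, with Ppp3ca at 3.86 and Prkcb at 14.4. The paired-end step was the only step in the order of the supernatant levels larger than the SD of the within-library difference.

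The rest of the 3′ UTR was compared between dendrite and soma as a second reading of the same mRNAs. In limma over 2358 genes, 8 of the 10 were tested and none passed, and across all genes 0% passed. Calcineurin again had the largest differences. Ppp3ca was 1.61 and 0.535 scaled FPKM in fear conditioned dendrite and 0 and 2.32 in home cage dendrite, against 63.0 and 263.4 in fear conditioned soma and 0 in both home cage soma libraries. Its log2 difference was −2.58 (SE 1.07, limma unadjusted p = 0.0296, adjusted p = 0.611). In this part Ppp3ca met the minimum mean only through fear conditioned soma, the group in which it is high, so its p is given as a description. As in the coding part, both fear conditioned soma libraries stood above all others. This part of Ppp3ca spans only 356 bases of the longest model. The single-end run gave 186.3 and 240.8 in fear conditioned soma and 0 and 8.83 in home cage soma.

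Ppp3cb did not repeat its coding pattern in the rest of its 3′ UTR. It was 3.76 and 0.0506 scaled FPKM in fear conditioned dendrite and 0 and 0.506 in home cage dendrite, against 7.11 and 10.1 in fear conditioned soma and 0 and 83.5 in home cage soma. The highest value came from home cage soma library 2, where the coding part was listed at 0 in both runs, and the single-end run of that library gave 690.4. The span of Ppp3cb, introns included, overlaps that of an opposite-strand symbol, 1810062O18Rik. Whether that symbol reaches this part of Ppp3cb was not examined. The log2 difference was −2.49 (SE 1.32, limma adjusted p = 0.611).

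The rest of the 3′ UTR of Prkcb is the longest of the 10, at 6389 bases in its longest model. Its values were 2.94 and 32.9 scaled FPKM in fear conditioned dendrite and 38.0 and 27.9 in home cage dendrite, against 19.5 and 34.6 in fear conditioned soma and 2.37 and 2.35 in home cage soma. Dendrite and soma overlapped, with a log2 difference of 1.05 (SE 1.21, limma adjusted p = 0.635). Prkce had 0.426 and 6.59 in fear conditioned dendrite and 3.66 and 18.4 in home cage dendrite, against 3.25 and 6.97 in fear conditioned soma and 0 and 1.32 in home cage soma. The log2 difference was 0.91 (SE 1.08, limma adjusted p = 0.643), and both genes changed sign in the single-end run, to −0.66 for Prkcb and −0.53 for Prkce. Prkca, Prkcz, Prkaca and Prkar1b had negative differences of −1.10, −1.39, −0.98 and −0.20. In this part Prkcz and Prkaca met the minimum mean only through soma libraries, so their differences are a description. No member had dendrite and soma groups without overlap, beside 1.06% of all genes higher and 2.33% lower in dendrite.

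The ratio of the rest of the 3′ UTR to the coding part was tested directly over 980 genes, of which 6 were members. None passed, and 0% of all genes did. Ppp3ca had the lowest, −1.45 log2 units between dendrite and soma (SE 0.94, limma adjusted p = 0.835), and Prkcb the highest, 1.08 (SE 1.05, adjusted p = 0.903). Prkar1b was at 0.56, Prkaca at 0.08, Prkce at −0.62 and Ppp3cb at −0.93. Ppp3ca and Ppp3cb met the minimum in both parts only through fear conditioned soma, and Prkaca only through soma, so their values are a description.

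**Figure D5:**
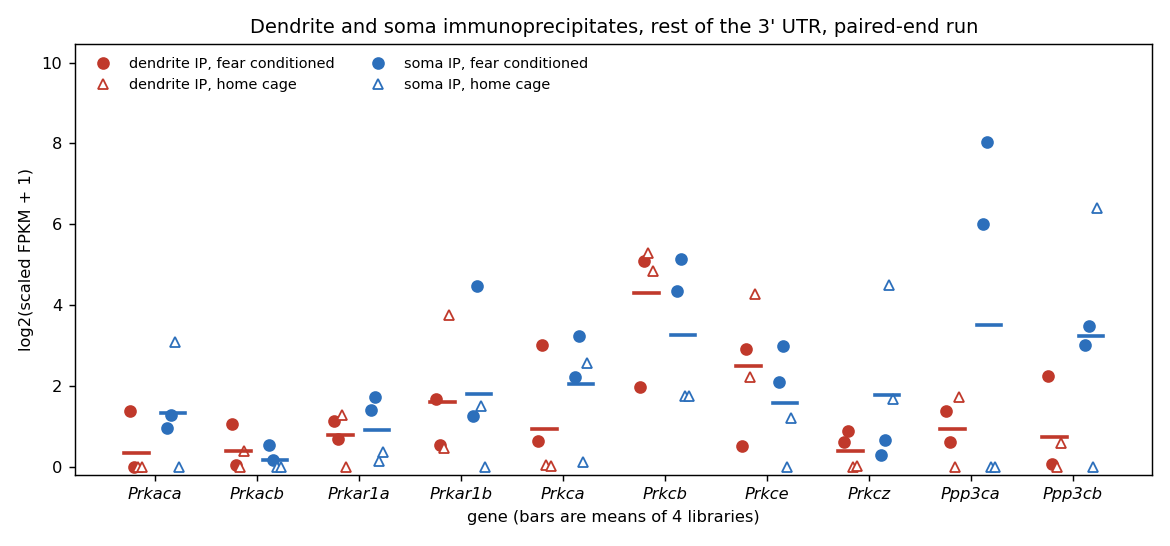
The same plot as for the coding part, for the rest of the 3′ UTR: each point is 1 immunoprecipitate (paired-end run) as log2(scaled FPKM + 1), dendrite in red left of soma in blue, circles fear conditioned, triangles home cage, bars at the mean of 4 libraries. Ppp3ca has 2 fear conditioned soma points above all others and 2 home cage soma points at 0, while the highest Ppp3cb point is a home cage soma library.

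Other genes of the 3 pathways were taken from lists of partners. Of 32 genes of the cAMP pathway, 12 were tested, and none passed in any comparison of immunoprecipitates by location or behaviour. In dendrite against soma 3 of the 12 had a positive difference, with a median of −0.83 log2 units. In soma 8 of the 12 were positive for fear conditioned against home cage, with a median of 0.24. In dendrite 8 of 12 were positive, with a median of 0.20. Over all 3019 genes 57.17% were positive in soma (median 0.22) and 58.03% in dendrite (median 0.0998). These all-gene shares are also the background for the PKC and calcineurin lists below. Whether any list differed from all genes was not tested. The 4 with the highest mean level were the anchoring proteins Akap8, Akap9, Akap6 and Akap11, which tether PKA at sites in the cell. Akap9 was 0.870 and 0.0441 scaled FPKM in fear conditioned dendrite and 0.204 and 0.193 in home cage dendrite, against 9.51 and 0.499 in fear conditioned soma and 17.4 and 3.40 in home cage soma (log2 difference −2.21, SE 0.95, limma adjusted p = 0.657). Akap8 had −1.02, Akap6 −0.73 and Akap11 −1.77, with an adjusted p of 0.657 to 0.677.

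Of 26 PKC relatives 24 had a row and 8 were tested, and none passed. In dendrite against soma 2 of the 8 were positive, with a median of −1.24 log2 units, and for fear conditioned against home cage 5 of 8 in soma (median 0.98) and 6 of 8 in dendrite (median 0.42). The highest were Gnb2l1, Add2, Plcb1 and Nrgn. Gnb2l1 encodes RACK1, a PKC anchor that is also part of the ribosome, and was lower in fear conditioned soma, at 12.1 and 1.499 scaled FPKM, than in home cage soma, at 78.7 and 164.3. Its log2 difference was −4.33 (SE 1.58, limma adjusted p = 0.598), so it did not pass either. Nrgn, a PKC substrate that binds calmodulin, was 1.22 in fear conditioned dendrite library 1 and 0 in the other 3 dendrite immunoprecipitates, against 0.261 and 22.5 in fear conditioned soma and 0 and 10.7 in home cage soma. Plcb1, which makes the diacylglycerol that activates PKC, had −2.30 (SE 1.01) and the cytoskeletal substrate Add2 had −1.36 (SE 1.43) between dendrite and soma, with adjusted p of 0.657 and 0.660.

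Of 24 calcineurin partners 11 were tested and none passed. In dendrite against soma 3 of 11 were positive (median −0.87 log2 units), in soma 8 of 11 for fear conditioned against home cage (median 0.65) and in dendrite 8 of 11 (median 0.43). Among the highest were Calm3 and Calm2, which encode the calmodulin that activates calcineurin, and Ppp2cb, a catalytic subunit of another phosphatase. Calm2 was 17.3 and 129.3 scaled FPKM in fear conditioned soma against 0.980 and 1.72 in home cage soma, a log2 difference of 4.40 (SE 1.76, limma adjusted p = 0.598). Calm3 did not share that split, at 3.42 and 200.1 against 3.61 and 237.4. Ppp2cb rested on 1 library, at 163.6 in home cage dendrite library 1 against at most 1.94 in the other dendrite immunoprecipitates.

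The genes most like a member across the 11 libraries were looked up for the member of each class with the highest mean, among genes above 0 in all 11, by Pearson's r of log2(scaled FPKM + 1). These values describe libraries that differ in depth and in fraction. For Ppp3ca they were Rtn-1A (r = 0.970), Pcdh9 (0.909) and Prrc2b (0.887). Rtn-1A was 95.1 and 141.2 scaled FPKM in fear conditioned soma and 1.16 and 7.11e-07 in home cage soma, the same split as Ppp3ca. For Prkce they were Zfr (0.914), Dnajc7 (0.836) and Ptp4a2 (0.820). Ptp4a2 had 1770 scaled FPKM in home cage dendrite library 1 and 821.2 in fear conditioned dendrite library 2, the libraries with the highest Prkce. For Prkar1a they were Kif1a (0.849), Ank3 (0.842) and Atp5a1 (0.818), all of them highest in home cage soma library 1. All these r are from paired-end runs. Prkar1a was 33.0 in home cage soma library 1 but 0.502 in its single-end run. Prkce was 72.9 in home cage dendrite library 1 but 1.47 in its single-end run.

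Within the enzyme families, the balance of isoforms also varied by library. Ppp3ca made up 98.9 to 100% of the summed calcineurin level in the dendrite immunoprecipitates that listed either gene, against 57.3 to 100% in soma immunoprecipitates and 95.9 to 99.0% in supernatants. The 57.3% came from fear conditioned soma library 2, whose single-end run gave 79.6%. Fear conditioned soma library 1 was at 93.2% in the paired-end run and 54.3% in the single-end run. The home cage dendrite supernatant was at 98.8% and 79.5% in these runs. Prkcb and Prkce together made up most of the PKC level in every paired-end run but in changing shares, with Prkcb at 9.26 to 72.5% in dendrite immunoprecipitates and 20.0 to 81.8% in soma immunoprecipitates. The 9.26% was in home cage dendrite library 1, whose single-end run gave 87.9%. The summed type I regulatory level exceeded the catalytic level in every immunoprecipitate of the paired-end run, but not in the single-end run of fear conditioned dendrite library 1 (ratio 0.917), home cage soma library 1 (0.256) and home cage dendrite library 1, where all 4 PKA genes were listed at 0. In the supernatants the ratio ran from 0.865 in fear conditioned dendrite through 5.204 in home cage dendrite to 16.9 in fear conditioned soma. No test was made of these shares.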

How the data were processed

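RNA was amplified with the Nugen Ovation V2 system and then prepared with the Illumina TruSeq DNA kit, per the labels' protocols, with no molecular identifiers named. The authors deposited FPKM per gene and transcript part in a paired-end and a single-end table, per the file headers; CASAVA 1.9, STAR 2.1.1d, Cufflinks 2.0.2 and mm9 are named in the submitters' processing notes, without settings. In the deposited annotation 86.8% of models keep 201 bases of the 3′ UTR in the coding part. Depth was estimated from the spacing of low FPKM in genes with 1 model of at least 1500 bases: 87.2 to 95.1% of these values lay within 0.15 reads of 1, 2 or 3 reads. The estimated fragments and reads per gene rest on it, and no interval for counting error was computed.

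Scaling used 1 factor per library, the median of its ratios to the geometric mean of each of 675 genes over 0.01 FPKM in all 11 libraries (387 for the rest of the 3′ UTR). limma 3.58.1 (R 4.3.3) was fitted to log2(scaled FPKM + 1) with trended moderation, a minimum mean of 1, and p-values adjusted by Benjamini-Hochberg over every gene in the fit; the script was tested on simulated data. The 8 immunoprecipitates were fitted as 4 group means (4 residual degrees of freedom), and all 11 libraries by location and fraction plus a behaviour term (6). Exact permutation tests (scipy 1.17.1) were two-sided. Tests stayed within 1 table. Same-numbered libraries were not treated as pairs. Members and lists were chosen with earlier results of these data known. Named genes are all 10 members, the 4 tested genes of each partner list with the highest mean, and the 3 genes most like the highest member of each class; 1 partner gene and the sequence comparison of the PKC genes are not reported here. Alternatives were other pseudocounts, expression minimums and scalings, the single-end table, a replicate block and leaving out each library.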

Additional observations from a re-analysis of the deposited data

Results flagged for a closer look

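In groups of 4 libraries, a value was marked where its gap to the nearest other value exceeded Dixon's 95% critical share of the group's range. Chance meets that rule in about 1 in 20 groups only where all values follow 1 normal distribution. These are unlogged FPKM with many values at 0, and each group holds both behaviours. How often chance meets the rule here is therefore not known, and the marks are a description. Over the 10 genes, both locations and both transcript parts, 11 of 40 groups had such a library. Fear conditioned dendrite library 1, which listed the most genes above 0 of the immunoprecipitates (12205), held 5 of them. In the coding part they were Prkcz at 0.290 scaled FPKM (the other 3 dendrite values listed at 0), Prkaca at 1.19 (next 0.190) and Prkacb at 0.383 (next 0.0118). In the rest of the 3′ UTR they were Prkaca at 1.61 (the others at 0) and Ppp3cb at 3.76 (next 0.506).

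The other dendrite values were Prkca at 7.13 scaled FPKM in fear conditioned library 2 (next 0.568) and Prkar1b at 12.4 in home cage library 2 (next 2.19), both in the rest of the 3′ UTR. In soma, Prkar1a was at 33.0 in the coding part of home cage library 1 (next 3.08). In the rest of the 3′ UTR of soma, Prkcz was at 21.45 in home cage library 1 (next 2.18), Prkar1b at 21.1 in fear conditioned library 2 (next 1.85) and Ppp3cb at 83.5 in home cage library 2 (next 10.1). The single-end run of the same library gave 19.2 for that Prkcz value and 690.4 for that Ppp3cb value, but 0.502 for the Prkar1a value and 0.671 for the Prkca value. In that single-end run Prkar1b had 10.8 in fear conditioned soma library 2, and was listed at 0 in home cage dendrite library 2.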

How the results depend on the processing

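None of the member differences passed at an adjusted p of 0.05 under the alternatives run for single genes, with 1 exception. These alternatives leave out the other expression minimums. The exception was Prkcz in the rest of the 3′ UTR (dendrite minus soma) without home cage soma library 2, at −2.10 log2 units. Home cage soma then holds library 1 alone, at 21.45 scaled FPKM, and Prkcz met the minimum mean only through it. The remaining immunoprecipitates were at most 0.851, so the exception is given as a description. Of 521 recomputed member differences over 37 results, 483 kept their direction and side of the threshold, 37 changed sign and 1 was the one named. The interaction, the soma supernatant and the ratio of parts were recomputed as counts of genes only.

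Numbers of genes passing moved as follows. Dendrite against soma passed 1 gene with FPKM as deposited and 1 in the single-end table, against 0; fear conditioned against home cage soma passed 1 with FPKM as deposited. Dendrite immunoprecipitate against supernatant passed 1 with pseudocounts of 0.1 and 5, a minimum of 5 and the replicate block, 399 without a minimum and 10 in the single-end table, against 2. Soma immunoprecipitate against supernatant passed 913 without a minimum and 10 in the single-end table. The rest of the 3′ UTR passed 4 with a pseudocount of 0.1 and 5 with a minimum of 5, and the ratio of parts 12 without a minimum. Leaving out 1 library gave 0 to 174 genes for fear conditioning in soma (115 without fear conditioned soma library 2, 69 and 174 without home cage soma libraries 1 and 2). It gave 0 to 185 for the rest of the 3′ UTR (119 and 138 without fear conditioned soma libraries 1 and 2, 185 without home cage soma library 2) and 0 to 2 for the dendrite supernatant comparison. The cause was not tested.

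Member differences that changed sign, as log2, were these. Dendrite minus soma: Prkcb 0.0551 (pseudocount 0.1), 0.62 (FPKM as deposited) and 0.19 (single-end), Prkce −1.03 and Prkar1a 0.55 (single-end). Fear conditioning in dendrite, single-end: Prkcb −1.43, Prkce 0.53 and Prkar1b 0.0552. Fear conditioning in soma: Prkar1a 0.80 (pseudocount 0.1), 0.55 (FPKM as deposited) and 1.83 (single-end), and Prkaca −0.48 (single-end). Dendrite immunoprecipitate minus supernatant: Prkcb 0.12 (FPKM as deposited), Prkce −1.79 (single-end) and Ppp3cb 0.0613 (replicate block). Rest of the 3′ UTR: Prkar1b 0.0799 (pseudocount 0.1), Prkcb −0.66 and Prkce −0.53 (single-end).

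Without 1 library each, Prkcb ran from −0.62 to 0.55 and Prkar1a from −1.88 to 0.66 in dendrite minus soma. Fear conditioning in dendrite ran from −2.99 to 0.42 for Prkce, −0.13 to 1.01 for Prkaca, −0.0822 to 2.20 for Prkar1a and −2.03 to 0.57 for Prkar1b, and in soma from −3.06 to 2.03 for Prkar1a. Against the dendrite supernatant Ppp3cb ran from −0.97 to 0.63, Prkar1a from −0.99 to 0.0874 and Prkcb from −0.60 to 0.37, and Prkar1b in the rest of the 3′ UTR from −1.02 to 0.62.

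Same-numbered immunoprecipitates did not deviate together (Pearson's r −0.0150 to 0.0576 across 3019 genes). This cannot settle whether they share a source, because there are 2 libraries a group and levels of several members differed between runs. Supernatants were not compared in this way. With the replicate block the soma differences of fear conditioning stayed at 4.18 for Ppp3ca and 3.18 for Ppp3cb (limma adjusted p = 0.628 for both). Scaling over the 8 immunoprecipitates alone, chosen after seeing the data, gave 4.53 and 3.42 and moved no count. Values of shallow libraries rest on few reads, and 2 libraries a group limit every statement on behaviour.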
